A study of Mus musculus with 12 samples.

Results

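The genotype by LPS interaction was measured over all 12 of the 12 libraries of a study on TLR4 in myeloid cells. Bone marrow-derived macrophages (BMDMs) were cultured from C57BL/6 mice with floxed tlr4 alleles (tlr4f/f) and from mice that also carried lysM-cre (tlr4f/f-lysM-cre). The cells grew out of bone marrow over 7 days in 50 ng/mL M-CSF and then received 1 µg/mL LPS for 6 h or no LPS. The 4 groups had 3 libraries each, headed LPS- tlr4f/f and LPS+ tlr4f/f for the floxed genotype, and for the genotype with Cre LPS- tlr4f/f-lysM-cre and likewise LPS+ tlr4f/f-lysM-cre. All 4 groups carry the floxed alleles, so none is a wild type, and lysM-cre was used to delete tlr4 in myeloid cells. For each gene the interaction is the LPS response in tlr4f/f-lysM-cre minus the LPS response in tlr4f/f, as a log2 fold change. A negative value means that the step with LPS was lower in tlr4f/f-lysM-cre than in tlr4f/f, and a positive value that it was higher. Nothing in the labels says that the 3 libraries of a group came from separate mice, so p-values measure the spread between these libraries, which may be technical.

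LPS, a cell wall component of Gram-negative bacteria, is sensed by TLR4 together with Ly96 and Cd14. From the cell surface the receptor signals through MyD88 to NF-kB and AP-1, which drive cytokine and chemokine genes, and from endosomes through TRIF to Irf3, which induces interferon-beta and, through its receptor, the interferon-stimulated genes. In macrophages LPS also turns metabolism towards glycolysis and slows the cell cycle.

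The counts of the targeted gene went against the headings. Tlr4 had 76.7, 147 and 121 CPM (counts scaled to a library of 1000000) under the heading LPS- tlr4f/f and 117, 95.1 and 116 in those under LPS- tlr4f/f-lysM-cre, but 31.1, 27.8 and 24.3 in those under LPS+ tlr4f/f and 27.5, 24.6 and 24.8 in those under LPS+ tlr4f/f-lysM-cre. Lyz2, the gene into which lysM-cre is inserted, ranged over 5950 to 23264 CPM in the 6 libraries headed LPS- and over 10.4 to 75.6 in the 6 headed LPS+. Il1b, a cytokine gene that LPS induces, went the other way across the headings, with 1640 to 8220 and 2498 to 2687 CPM in the 2 groups headed tlr4f/f-lysM-cre and at most 6.93 in the 2 headed tlr4f/f. Tlr4 and Lyz2 thus followed the LPS heading and Il1b the genotype heading. The interaction has the same value whether or not the heading LPS+ tlr4f/f is exchanged with LPS- tlr4f/f-lysM-cre, since the 2 groups enter it with the same sign. The LPS response within a genotype does depend on the headings, and it is given as headed and with these 2 headings exchanged.

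The libraries held 33577087 to 56445268 counts on 1 transcript per gene, and 15775 of 43131 genes were tested. The spread between libraries, as the biological coefficient of variation within a group, was 46.8% in LPS- tlr4f/f and 41.0% in LPS- tlr4f/f-lysM-cre, but 8.78% in LPS+ tlr4f/f and 8.96% in LPS+ tlr4f/f-lysM-cre. Macrophage markers summed to 16995 to 34658 CPM in LPS- tlr4f/f, 22817 to 27381 in LPS- tlr4f/f-lysM-cre, 7549 to 8079 in LPS+ tlr4f/f and 11861 to 12398 in LPS+ tlr4f/f-lysM-cre. Without Lyz2 the other 11 markers summed to 10428 to 11394, 15496 to 18147, 7538 to 8065 and 11808 to 12323 CPM in the same order. Since RNA came from whole cultures, fewer cells of a type and less RNA per cell cannot be told apart.

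A differentially expressed gene (DEG) was a gene with a fold above 2 and an adjusted p below 0.01 in the quasi-likelihood test of edgeR, adjusted over all genes tested by the Benjamini-Hochberg method and called edgeR adjusted p from here on. The interaction gave 164 DEGs (1.04% of the genes tested), 60 negative (0.38%) and 104 positive (0.659%), of which 159 code for proteins. With the looser criterion of an adjusted p below 0.05 alone, 420 genes were negative (2.66%) and 682 positive (4.32%). Values ran from -8.12 to -1.04 in the negative DEGs, with a median of -1.57, and from 1.00 to 3.42 in the positive DEGs, with a median of 1.50, beside a median of 0.07 over all genes tested. The count rested on each of the 6 libraries headed LPS+. When 1 of these was left out at a time, 10 to 21 DEGs were left, all of them among the 164. Leaving out 1 library headed LPS- gave 99 to 306. With RLE instead of TMM scaling factors, which moved the median of all genes to -0.02, the split was 80 negative and 64 positive. DESeq2 called 657 genes, 155 of them among the 164, and 67 of the 164 (37 negative, 30 positive) were called by edgeR with TMM, RLE and the replicate block, by DESeq2 and by limma voom.

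**Figure D1:**
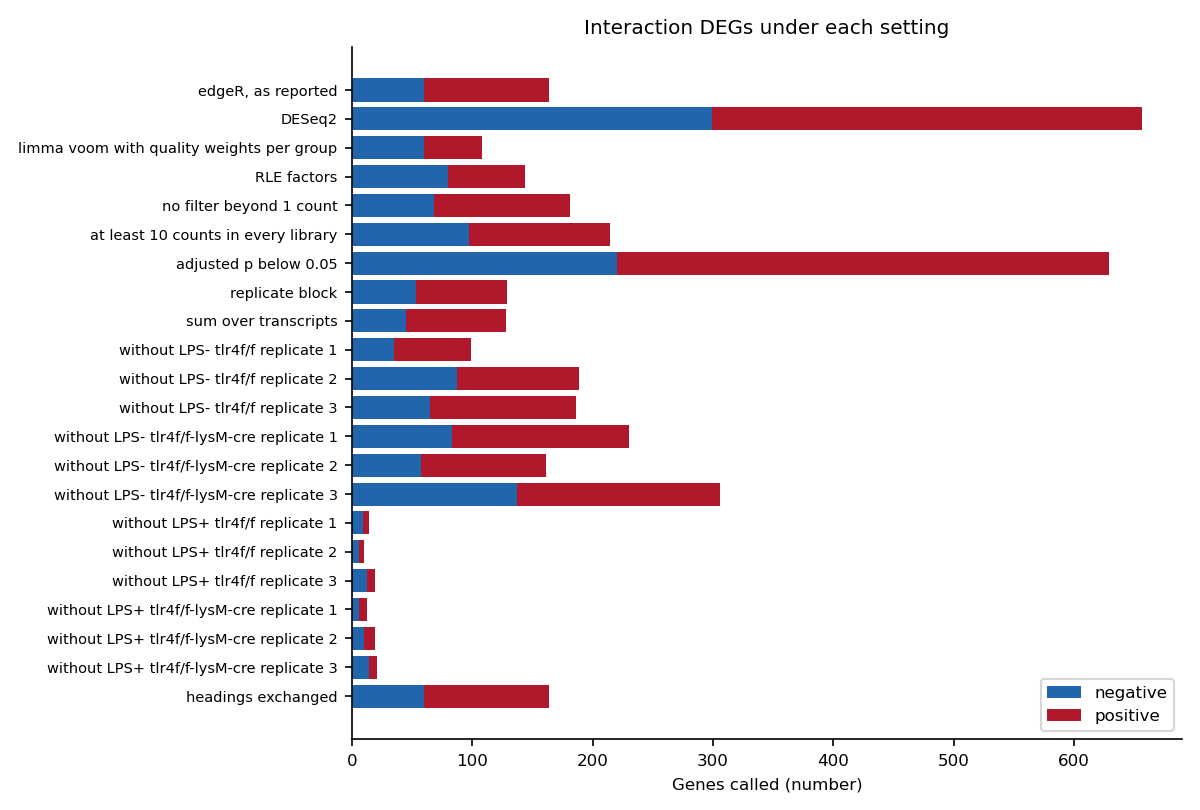
Number of genotype by LPS interaction DEGs (horizontal axis) under each setting (vertical axis), negative in blue and positive in red. The count was 164 as reported, 657 with DESeq2 and 10 to 21 without any library headed LPS+.

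The libraries under LPS- tlr4f/f-lysM-cre stood at the end of the scale in nearly every interaction DEG. Of the 60 negative DEGs, 58 had their highest mean in this group, and in the same number all 3 of its libraries lay above the other 9, which was the case in 13.7% of all genes tested. Of the 104 positive DEGs, 100 had their lowest mean there, and in 99 all 3 libraries lay below the other 9, beside 14.5% of all genes. Relative to LPS- tlr4f/f, the median negative DEG was 2.10 log2 units higher in LPS- tlr4f/f-lysM-cre, 0.14 in LPS+ tlr4f/f and 0.65 in LPS+ tlr4f/f-lysM-cre, on a scale of log2 of the mean CPM plus 0.1. The median positive DEG stood at -2.15, -0.23 and -0.80 on the same scale. As this group enters the contrast with a negative sign, and the calls came from the contrast, these levels describe the DEGs and are no test.

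**Figure D2:**
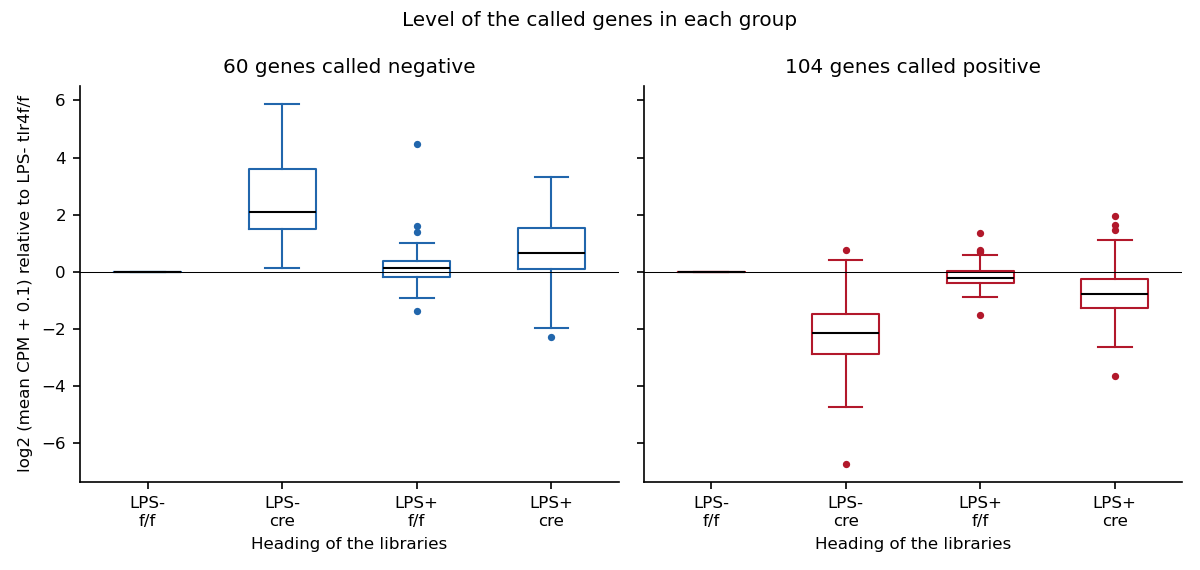
Level of the interaction DEGs in each group as log2 of the mean CPM plus 0.1 relative to LPS- tlr4f/f, for 60 negative (left) and 104 positive genes (right). Boxes span the quartiles with the median as a line, whiskers reach the last gene within the usual limit of a box plot, and points are genes beyond it. The LPS- tlr4f/f-lysM-cre group had medians of 2.10 and -2.15, farther from 0 than the other groups.

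Peli1, Stat3, Junb, Tnip2 and Tnfsf9 were negative DEGs of the pathway lists. Peli1 (chr11:21091283-21150327, mm10), a ubiquitin ligase that acts on IRAK and TRIF signalling, had 27.7, 34.1 and 39.3 CPM in LPS- tlr4f/f, 427, 397 and 377 in LPS- tlr4f/f-lysM-cre, 30.6, 29.9 and 28.9 in LPS+ tlr4f/f and 99.9, 119 and 117 in LPS+ tlr4f/f-lysM-cre. The 2 groups headed tlr4f/f overlapped, and the 2 headed tlr4f/f-lysM-cre overlapped with no other group. The interaction of Peli1 was -1.66 ± 0.18 (SE, n = 3 libraries per group, edgeR adjusted p = 0.00183). Stat3 (chr11:100886806-100939594), which acts downstream of IL-6 and IL-10, had 144, 156 and 149 CPM in LPS- tlr4f/f, 763, 1026 and 630 in LPS- tlr4f/f-lysM-cre, 102, 111 and 110 in LPS+ tlr4f/f and 225, 225 and 236 in LPS+ tlr4f/f-lysM-cre. No group of Stat3 overlapped with another, and its interaction was -1.34 ± 0.22 (edgeR adjusted p = 0.00813). Junb (chr8:84976909-84978748), an AP-1 subunit, was also highest in LPS- tlr4f/f-lysM-cre, with means over 3 libraries of 173, 1054, 192 and 396 CPM in the order of the headings above, and an interaction of -1.56 ± 0.19 (edgeR adjusted p = 0.00244). Tnip2, which restrains NF-kB together with A20, gave -1.21 ± 0.19 (edgeR adjusted p = 0.00734), and Tnfsf9, the ligand of a co-stimulatory receptor of T cells, gave -2.10 ± 0.35 (edgeR adjusted p = 0.00877). Stat3, Junb, Tnip2 and Tnfsf9 were not called when any 1 of the 6 libraries headed LPS+ was left out. Peli1 was not called without 3 of these 6.

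Among the 5 negative DEGs with the largest change, leaving out genes with a group at or below 3 counts, only Pfkfb3 was abundant. Pfkfb3 (chr2:11471430-11554071), which makes the main allosteric activator of phosphofructokinase and so drives glycolysis, had 30.5, 49.3 and 28.4 CPM in LPS- tlr4f/f, 632, 1880 and 1429 in LPS- tlr4f/f-lysM-cre, 28.6, 34.4 and 26.6 in LPS+ tlr4f/f and 99.2, 83.4 and 99.8 in LPS+ tlr4f/f-lysM-cre. All 3 of its libraries under LPS- tlr4f/f-lysM-cre lay above those of LPS+ tlr4f/f-lysM-cre, while the 2 groups headed tlr4f/f overlapped, and the interaction was -3.53 ± 0.49 (edgeR adjusted p = 0.00451). Ptch1 (chr13:63508328-63573460), the Hedgehog receptor, had 7.73, 4.62 and 7.64 CPM in LPS- tlr4f/f, 37.3, 25.3 and 21.7 in LPS- tlr4f/f-lysM-cre, 7.86, 7.68 and 6.26 in LPS+ tlr4f/f and 2.57, 3.12 and 2.31 in LPS+ tlr4f/f-lysM-cre. It was highest in the first tlr4f/f-lysM-cre group and lowest in the second, with an interaction of -3.52 ± 0.36 (edgeR adjusted p = 0.00175), and it kept its call in all 20 alternatives. Angpt1, a ligand of the receptor tyrosine kinase Tek, reached 4.48 to 10.3 CPM in LPS- tlr4f/f-lysM-cre and at most 0.946 in the other groups (-5.63 ± 0.73). Asap3, a GTPase-activating protein for Arf, reached 3.77 to 9.29 CPM there and at most 0.542 elsewhere (-4.82 ± 0.78). Fhod3, a formin that assembles actin filaments, reached 4.32 to 8.67 CPM there and at most 2.47 elsewhere (-3.99 ± 0.60). Pfkfb3, Angpt1, Asap3 and Fhod3 were not called when any 1 of the 6 libraries headed LPS+ was left out.

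The positive interaction DEGs with the largest change were lowest in the libraries under LPS- tlr4f/f-lysM-cre. Sesn1 (chr10:41810574-41908436), a p53 target that restrains mTOR signalling, had 62.2, 62.8 and 71.4 CPM in LPS- tlr4f/f, 2.55, 2.60 and 3.98 in LPS- tlr4f/f-lysM-cre, 70.9, 79.6 and 86.2 in LPS+ tlr4f/f and 35.8, 34.4 and 36.5 in LPS+ tlr4f/f-lysM-cre. Its interaction of 3.28 ± 0.22 had the lowest adjusted p of all genes (0.000283 in edgeR), and it kept its call in all 20 alternatives. Arrb1 (chr7:99535147-99606772), a beta-arrestin that desensitises G protein-coupled receptors, had 219, 212 and 350 CPM in LPS- tlr4f/f, 19.5, 15.8 and 24.9 in LPS- tlr4f/f-lysM-cre, 197, 193 and 207 in LPS+ tlr4f/f and 132, 129 and 132 in LPS+ tlr4f/f-lysM-cre. In both genes the 3 libraries of LPS- tlr4f/f-lysM-cre lay below the other 9, and Arrb1 gave 3.09 ± 0.29 (edgeR adjusted p = 0.00135), also called in all 20 alternatives. Cnr2, a cannabinoid receptor of immune cells, had 21.1 to 53.3 CPM in the 2 groups headed tlr4f/f, 0.219 to 0.280 in LPS- tlr4f/f-lysM-cre and 2.68 to 3.27 in LPS+ tlr4f/f-lysM-cre (3.24 ± 0.43). Ldlrad3, a membrane protein of the LDL receptor type, had 1.91 to 2.41 CPM in LPS- tlr4f/f-lysM-cre and at least 7.72 elsewhere (3.42 ± 0.48). The uncharacterised 6430548M08Rik had 1.60 to 3.08 and at least 14.7 CPM (3.11 ± 0.33). Cnr2 and Ldlrad3 were not called when any 1 of the 6 libraries headed LPS+ was left out. Scd2, a stearoyl-CoA desaturase, had 26.2 to 35.3 CPM in LPS- tlr4f/f-lysM-cre and 211 to 917 elsewhere (2.59 ± 0.43, edgeR adjusted p = 0.00877), and it was not called with RLE factors, limma voom or the sum over transcripts.

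**Figure D3:**
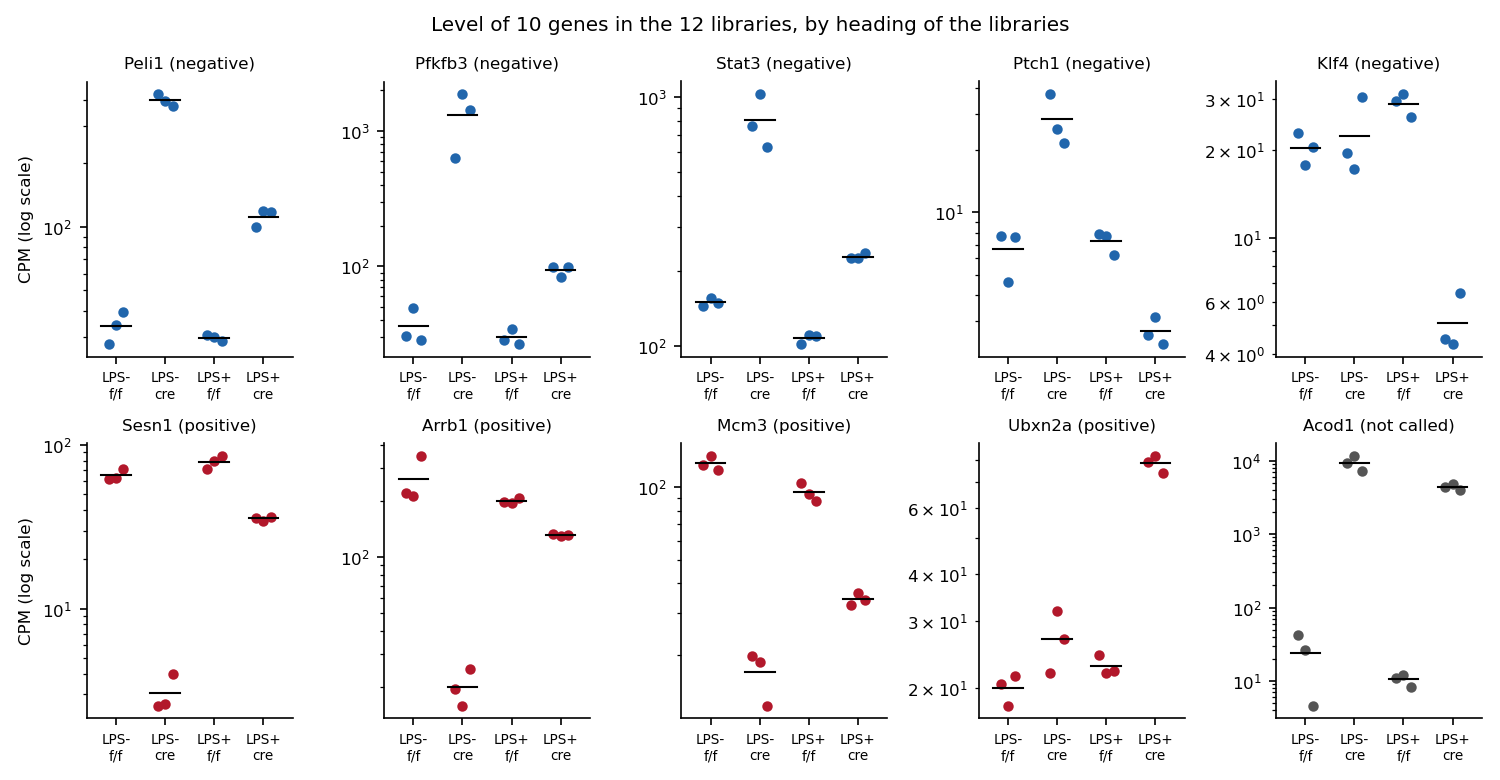
CPM on a log axis (vertical) of 10 genes in the 12 libraries, by the heading of the libraries (horizontal, with f/f for tlr4f/f and cre for tlr4f/f-lysM-cre). Points are libraries, bars are means of 3, and blue, red and grey mark genes called negative, positive and not called. Klf4 was lowest and Ubxn2a highest in LPS+ tlr4f/f-lysM-cre, whereas Peli1, Pfkfb3, Stat3 and Ptch1 were highest and Sesn1, Arrb1 and Mcm3 lowest in LPS- tlr4f/f-lysM-cre.

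With the heading LPS+ tlr4f/f exchanged with LPS- tlr4f/f-lysM-cre, the interaction DEGs were mostly genes whose LPS response was smaller in tlr4f/f-lysM-cre. In this reading all 60 negative DEGs were higher with LPS in tlr4f/f, with a median of 2.18 log2 units against 0.61 in tlr4f/f-lysM-cre, and 101 of 104 positive DEGs were lower with LPS in tlr4f/f, with a median of -2.17 against -0.57. A response was counted as lost where a gene was a DEG for LPS in tlr4f/f and an interaction DEG of opposite sign, as kept where it was a DEG of the same sign in both genotypes and no interaction DEG, and as gained where it was a DEG in tlr4f/f-lysM-cre and an interaction DEG of the same sign. The lost class held 147 genes (0.932% of those tested), 54 of them higher and 93 lower with LPS in tlr4f/f. Of the 147, 94 were no DEG for LPS in tlr4f/f-lysM-cre, 51 were still a DEG in the same direction, and 2 were a DEG in the other direction. Those 2 were Ptch1, with 2.08 in tlr4f/f, against -1.45 in tlr4f/f-lysM-cre, and Irs2, the insulin receptor substrate, with 1.51 and -1.42 (named after its values were seen). Junb and Trip12, a ubiquitin ligase, had the highest mean CPM of the lost class. Junb changed by 2.60 log2 units with LPS in tlr4f/f. It was still a DEG in tlr4f/f-lysM-cre, at 1.04 (edgeR adjusted p = 0.000183), so its response was smaller but not absent. Trip12 changed by 1.44 log2 units with LPS in tlr4f/f (edgeR adjusted p = 5.7e-06) and by 0.25 in tlr4f/f-lysM-cre (edgeR adjusted p = 0.16).

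The kept class was larger, with 1743 genes (11%), 1053 higher and 690 lower with LPS. A response counted as kept need not be of equal size: the 95% interval of the interaction lay within 1 log2 unit of 0 for 411 of them. Acod1, which makes itaconate, and Rnf213, an interferon-induced ubiquitin ligase, were the most abundant. Acod1 had 42.3, 26.3 and 4.60 CPM in LPS- tlr4f/f, 9274, 11734 and 7264 in LPS- tlr4f/f-lysM-cre, 11.1, 12.2 and 8.28 in LPS+ tlr4f/f and 4329, 4816 and 3995 in LPS+ tlr4f/f-lysM-cre. With the exchange its response was 8.59 in tlr4f/f, against 8.70 in tlr4f/f-lysM-cre, and its interaction of 0.11 had a 95% interval of -1.63 to 1.85. Rnf213 responded by 2.88 and 2.81 log2 units, with an interval of the interaction of -0.71 to 0.56. Across all genes, 1996 were DEGs higher with LPS in tlr4f/f (12.7%), against 1187 in tlr4f/f-lysM-cre (7.52%), and 2255 (14.3%) and 858 (5.44%) were lower. In this reading the 2 groups of tlr4f/f had a spread of 46.8% and 41.0%, and those of tlr4f/f-lysM-cre of 8.78% and 8.96%. The fit gave each gene 1 spread for all 4 groups. Counts of DEGs per genotype, here and in the lists, are therefore not on an equal footing. Genes chosen as higher with LPS in tlr4f/f-lysM-cre, which favours a large response there, had a median of 86.8% of the log2 response of tlr4f/f, and those chosen in tlr4f/f, which favours the reverse, had 68.8%. For genes lower with LPS the medians were 79.5% and 51.3%.

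The gained class held 8 genes (0.0507%) with the exchange, and Ubxn2a and Ipo13 were the most abundant. Ubxn2a (chr12:4876814-4907553), an adaptor of the p97 segregase, had 20.5, 17.9 and 21.6 CPM in LPS- tlr4f/f, 21.9, 31.9 and 26.9 in LPS- tlr4f/f-lysM-cre, 24.5, 21.9 and 22.1 in LPS+ tlr4f/f and 79.1, 82.5 and 74.2 in LPS+ tlr4f/f-lysM-cre. Its 3 libraries under LPS+ tlr4f/f-lysM-cre lay above the other 9, and the interaction was 1.36 ± 0.19 (edgeR adjusted p = 0.00451). Ipo13, a nuclear transport receptor, had 138 to 150 CPM in that group and 60.0 to 93.0 in the others (1.17 ± 0.19, edgeR adjusted p = 0.00813). Klf4 (chr4:55527137-55532475), a zinc finger transcription factor, was the counterpart: 22.9, 17.8 and 20.5 CPM in LPS- tlr4f/f, 19.6, 17.2 and 30.4 in LPS- tlr4f/f-lysM-cre, 29.5, 31.2 and 26.0 in LPS+ tlr4f/f and 4.48, 4.30 and 6.44 in LPS+ tlr4f/f-lysM-cre. All 3 libraries of the last group lay below the other 9 (-2.64 ± 0.32, edgeR adjusted p = 0.00244). These 3 genes had the same extreme group, LPS+ tlr4f/f-lysM-cre, in both readings, since the exchange does not touch its heading. The other members were Klhl8 (2.41), Rsad1 (2.29) and Pag1 (1.40) with positive and Psip1 (-1.64) and Pacsin1 (-8.12) with negative interactions.

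As headed, the same interactions fell into other classes. The LPS response of tlr4f/f then had few DEGs, 21 higher (0.133%) and 53 lower (0.336%), while tlr4f/f-lysM-cre had 571 higher (3.62%) and 579 lower (3.67%). The gained class held 123 genes (0.78%), of which 77 were higher and 46 lower with LPS in tlr4f/f-lysM-cre, the kept class 52 genes (0.33%), and the lost class only Pacsin1 (0.00634%). The 60 negative DEGs had a median response of 0.14 in tlr4f/f, against -1.42 in tlr4f/f-lysM-cre, and the 104 positive DEGs of -0.23 and 1.35. These medians too come from genes called on the contrast and are no test. Sesn1, for example, changed by 0.27 in tlr4f/f, against 3.55 in tlr4f/f-lysM-cre as headed, and by -4.43 and -1.15 with the exchange. Lyz2 and C3, a complement component, were the most abundant genes of the kept class, with -10.12 and -6.93 for Lyz2 and -2.90 and -2.31 for C3. C3 was kept in both readings but with opposite signs, since it responded by 3.86 and 4.44 with the exchange. The interaction of each gene is the same in both readings, so which of these descriptions holds rests on the headings. The counts of Tlr4, Lyz2 and Il1b given above went against the headings as they stand. The classes as headed are given with that limit, and the exchange itself was not tested.

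**Figure D4:**
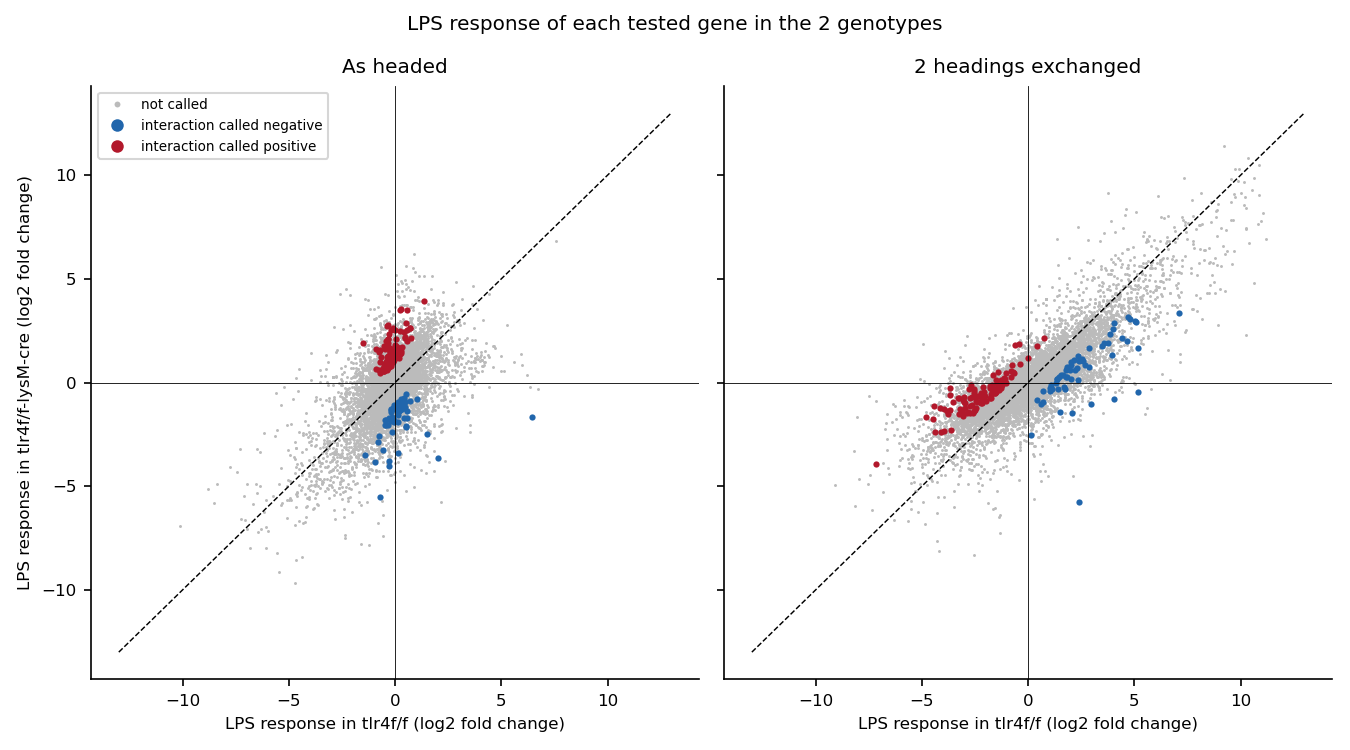
LPS response in tlr4f/f (horizontal axis) against tlr4f/f-lysM-cre (vertical axis) as log2 fold changes for 15775 genes, as headed (left) and with the heading LPS+ tlr4f/f exchanged with LPS- tlr4f/f-lysM-cre (right). Interaction DEGs are blue (60 negative) and red (104 positive), and the dashed line marks equal responses. As headed the DEGs spread along the vertical axis, with medians of -1.42 and 1.35 there, and with the exchange most lie between the dashed line and the horizontal axis.

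The pathway lists differed in how far their interaction lay from that of all genes, of which 46% had a negative value. Beside the counts given for each list, 23.5% of all genes had an unadjusted p below 0.05 in edgeR, and DESeq2 called 4.16% and limma voom 0.685%. Of 20 inflammatory cytokines 18 were negative, with a median of -1.19 (-1.80 with limma voom), 1 (Tnfsf9) was a DEG and 7 had an unadjusted p below 0.05. With the exchange all 20 were DEGs higher with LPS in tlr4f/f, against 14 in tlr4f/f-lysM-cre, beside 1996 and 1187 of all genes tested. A lower count in tlr4f/f-lysM-cre was thus not particular to this list. Il1b gave -0.49 with a 95% interval of -3.32 to 2.35, and Il10, the anti-inflammatory cytokine, gave -2.82 with an interval of -4.52 to -1.11 (edgeR adjusted p = 0.0547). Il10 had 67.2, 131 and 172 CPM in LPS- tlr4f/f-lysM-cre, 7.21, 5.96 and 5.07 in LPS+ tlr4f/f-lysM-cre and 0.486 to 3.03 in the other 6 libraries. Of 20 chemokines 15 were negative (median -0.95), and none was a DEG in edgeR, DESeq2 or limma voom, with 6 at an unadjusted p below 0.05. The lowest adjusted p among them was that of Cxcl9, a ligand of Cxcr3, at -3.48 ± 1.06 (edgeR adjusted p = 0.0771). Ccl2, which recruits monocytes, gave -1.48 with an interval of -5.00 to 2.04, and its 3 libraries of LPS- tlr4f/f ranged from 0.654 to 270 CPM.

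NF-kB subunits and their feedback regulators had 24 of 28 negative values, a median of -0.70, 16 at an unadjusted p below 0.05 and 2 DEGs, Peli1 and Tnip2, whereas Nfkb1, the p105 subunit gene, gave -0.19 (interval -0.83 to 0.46). AP-1 and other early response factors had 17 of 22 negative values, a median of -1.06, 12 at an unadjusted p below 0.05 and 2 DEGs, Junb and Klf4. Jun and Fos themselves gave 0.12 and 1.23 and were not called (edgeR adjusted p = 0.852 and 0.297). MHC class I and immunoproteasome genes were negative in 19 of 19, with a median of -0.60, no DEG in edgeR or limma voom and 11 at an unadjusted p below 0.05. H2-T22, a non-classical class I gene, had the lowest adjusted p of that list (-1.12 ± 0.27, edgeR adjusted p = 0.0335). With the exchange 17 of the 19 were DEGs higher with LPS in tlr4f/f, against 12 in tlr4f/f-lysM-cre, beside 1996 and 1187 of all genes tested. DESeq2 called 6 NF-kB genes, 5 cytokines, 4 AP-1 and early response genes and 2 MHC class I genes, all negative.

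Interferon-beta response genes had a median close to that of all genes. Of 49 members 32 were negative, with a median of -0.12. The 95% interval lay within 1 log2 unit of 0 for 24, beside 5694 of the 15775 genes tested. None was a DEG in edgeR or limma voom and 2 were in DESeq2, with 4 at an unadjusted p below 0.05. With the exchange 47 were DEGs higher with LPS in tlr4f/f, against 46 in tlr4f/f-lysM-cre, and 46 were in the kept class, where the response in tlr4f/f-lysM-cre was a median of 96.1% of that in tlr4f/f on the log2 scale. The kept class leaves out interaction DEGs, which favours a high share, and its median over all genes was 81.5%. The share was 95.4% for the kept interferon-gamma type GTPases and 94.4% for the kept effector enzymes. Tor3a, an interferon-induced torsin, had the lowest adjusted p of the list (-0.94 ± 0.24, edgeR adjusted p = 0.0448). The interferon-gamma type GTPases had a median of -0.18 over 15 members (-0.61 with limma voom, against -0.12 for the interferon-beta list), all 15 of them kept and none a DEG in edgeR (1 in DESeq2, 1 at an unadjusted p below 0.05), and Gbp9 lowest in adjusted p at -0.99 ± 0.25 (edgeR adjusted p = 0.0411). The difference between lists was not tested.

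The effector enzymes spread widely around a median of -0.12 (-0.46 with limma voom), with 10 of 19 negative and none called in edgeR (1 in DESeq2, 5 at an unadjusted p below 0.05). Nos2, the inducible nitric oxide synthase, had 2302, 5656 and 1943 CPM in LPS- tlr4f/f-lysM-cre, 152, 204 and 129 in LPS+ tlr4f/f-lysM-cre and at most 2.74 in the other 6 libraries. Its interaction of -3.13 had an interval of -5.73 to -0.53 and missed the adjusted threshold (edgeR adjusted p = 0.137), while Slc7a2, an arginine transporter, gave -3.39 ± 0.87 (edgeR adjusted p = 0.0434). Genes of the TLR4 receptor and its adaptors had a median of -0.13, with 13 of 21 negative, no DEG in edgeR, DESeq2 or limma voom and 11 at an unadjusted p below 0.05, and Irak1, a kinase of the MyD88 arm, gave 0.49 ± 0.12 (edgeR adjusted p = 0.0314). The interaction of Tlr4 itself was -0.05 with an interval of -0.67 to 0.58. The other transcription factors that the study discusses gave -0.66 for Irf1, -0.60 for Irf8 and 0.34 for Rbl2, and none of them was called.

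**Figure D5:**
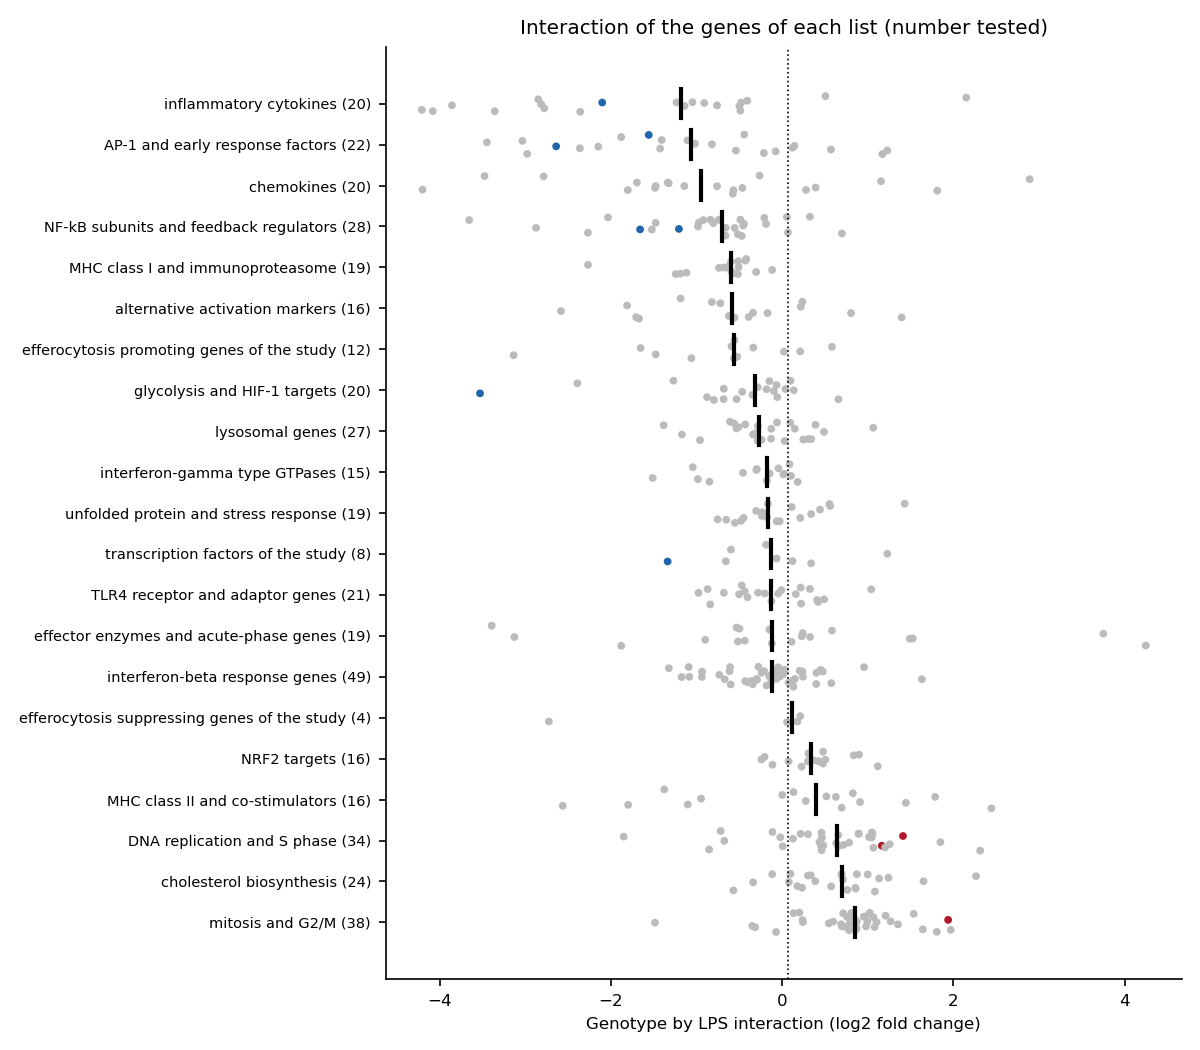
Genotype by LPS interaction (log2 fold change, horizontal axis) of the tested genes of 21 lists (vertical axis, with the number tested). Points are genes, blue and red where called negative or positive, black bars are medians, and the dotted line is the median of all genes (0.07). Medians ran from -1.19 for inflammatory cytokines to 0.85 for mitosis genes.

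Cell cycle and cholesterol genes had medians on the positive side. Of 38 genes of mitosis and G2/M 34 were positive, with a median of 0.85, but only 2 had an unadjusted p below 0.05. In edgeR 1 was a DEG, in DESeq2 2 and in limma voom none. The edgeR gene was Bora, which promotes entry into mitosis, with 9.46, 10.8 and 6.80 CPM in LPS- tlr4f/f, 0.751, 1.25 and 0.903 in LPS- tlr4f/f-lysM-cre, 14.5, 14.5 and 15.5 in LPS+ tlr4f/f and 5.46, 6.23 and 6.58 in LPS+ tlr4f/f-lysM-cre. Its interaction was 1.94 ± 0.30 (edgeR adjusted p = 0.00721). Of 34 genes of DNA replication 28 were positive, with a median of 0.64, 16 at an unadjusted p below 0.05 and 2 DEGs (4 in DESeq2, 1 in limma voom). Mcm3 (chr1:20802966-20820312), a subunit of the replicative helicase, had 123, 136 and 118 CPM in LPS- tlr4f/f, 19.9, 18.7 and 12.3 in LPS- tlr4f/f-lysM-cre, 105, 93.7 and 87.6 in LPS+ tlr4f/f and 32.2, 36.4 and 33.7 in LPS+ tlr4f/f-lysM-cre (1.41 ± 0.23, edgeR adjusted p = 0.00793). Pold1, the catalytic subunit of DNA polymerase delta, followed the same order (1.16 ± 0.20, edgeR adjusted p = 0.00985), and neither Mcm3 nor Pold1 was called with RLE factors. With the exchange 28 of the 34 replication genes were DEGs lower with LPS in tlr4f/f, against 22 in tlr4f/f-lysM-cre, and of the mitosis genes 17 and 4. Of all genes tested 2255 and 858 were lower. Cholesterol biosynthesis was positive in 21 of 24 genes (median 0.69), with no DEG in edgeR, 1 in DESeq2 and 9 at an unadjusted p below 0.05, and Dhcr7, the last enzyme of the pathway, gave 1.65 ± 0.34 (edgeR adjusted p = 0.0193).

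The remaining lists held few calls. Glycolysis and HIF-1 targets were negative in 16 of 20 (median -0.32), with Pfkfb3 as the only DEG in edgeR, 3 DEGs in DESeq2 and 5 genes at an unadjusted p below 0.05. Lysosomal genes were negative in 18 of 27 (median -0.27; Lamp2 -0.56), unfolded protein response genes in 12 of 19 (median -0.17; Herpud1 1.43) and NRF2 targets in 3 of 16 (median 0.34; G6pdx 0.48), with no DEG in edgeR or limma voom, 1 in DESeq2 and 6 at an unadjusted p below 0.05 over the 3 lists. MHC class II and co-stimulators had 5 of 16 negative values and a median of 0.40 (0.22 with limma voom), and Cd80, a ligand of Cd28, had -2.57 ± 0.47 (edgeR adjusted p = 0.012), just outside the threshold. No other gene of that list came nearer, and 3 of the 16 had an unadjusted p below 0.05. Markers of alternative activation were negative in 12 of 16 (median -0.59, or -0.95 with limma voom), with -1.81 for Clec10a and -1.19 for Mrc1, the mannose receptor, whose libraries under LPS- tlr4f/f ranged from 15.1 to 486 CPM. Of the genes that the study lists as promoting efferocytosis, the engulfment of dying cells, 9 of 12 were negative (median -0.56), with -0.56 for Rhog, and of those listed as suppressing it 1 of 4, Cd300lf (-2.73 ± 0.59, edgeR adjusted p = 0.0224). None of these alternative activation and efferocytosis genes was a DEG in edgeR, 1 (Cd300lf) was in DESeq2, and 5 had an unadjusted p below 0.05.

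Markers of other cell types had mostly negative values. Neutrophil markers were negative in 10 of 10 tested (median -2.09) and summed to 3.98 to 52.7 CPM in LPS- tlr4f/f, 30.3 to 243 in LPS- tlr4f/f-lysM-cre, 11.1 to 19.5 in LPS+ tlr4f/f and 11.0 to 19.7 in LPS+ tlr4f/f-lysM-cre, with Ly6g and Retnlg at 3 counts or fewer in every library. Fibroblast and stromal markers were negative in 10 of 11 (median -1.42), with sums of 13.8 to 817, 213 to 1797, 27.4 to 35.5 and 55.7 to 71.1 CPM in the same order of groups. Dendritic cell markers were negative in 5 of 5 (median -1.15), with sums of 35.5 to 225, 64.5 to 266, 571 to 631 and 693 to 717 CPM and with Flt3 and Siglech at 3 counts or fewer. These sums were mostly Itgax, with 35.2 to 224, 51.3 to 261, 570 to 630 and 690 to 714 CPM in the same order. No other marker of this list was above 8.67 CPM in any library. Macrophage markers had a median of -0.08 over 12, and lymphocyte, erythroid, mast cell and megakaryocyte markers, of which 2 to 3 a list were tested, had medians of -0.15, -1.68, -0.48 and -0.43. Sex-linked genes had a median of 0.08. Of the 54 genes of these lists none was an interaction DEG in edgeR or limma voom, 2 macrophage markers were in DESeq2, and 5 had an unadjusted p below 0.05. Their part in the results was not tested.

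Promoters from RefSeq (GRCm38.p6, 250 bases before to 50 after each start) were found for 10840 genes tested, among them 50 negative and 75 positive DEGs. The kappaB motif (GGG, any 2 bases, TTTCC), searched on both strands like the others, was in 5 of 50 promoters of negative DEGs (10.0%), 2 of 75 of positive DEGs (2.67%) and 2.15% of all. Its share was 2.91% in the kept class with the exchange. Among lists it was in 3 of 13 cytokine (23.1%), 4 of 12 chemokine (33.3%) and 5 of 24 NF-kB promoters (20.8%). It was in 1 of 17 cholesterol, 1 of 31 mitosis and 0 of 36 interferon-beta response promoters. The interferon-stimulated response element (TTTC, any 2 bases, TTTC) was in 1 of 50 (2.0%), 3 of 75 (4.0%) and 3.97%, and in 107 of 1235 genes of the kept class with the exchange (8.66%). It was in 20 of 36 interferon-beta response genes (55.6%). The sterol element (ATCAC directly before CCCAC) was in none of the DEG promoters and 0.0554% of all, and CCAAT was in 40.0%, 41.3% and 42.5% in the order negative, positive and all. None of these shares was tested, and a match is not a bound site. The 250 bases before the start are shown for the 5 negative DEGs with a kappaB match, which is in capitals. Akap13 is an anchoring protein of protein kinase A, Hivep2 a zinc finger protein that binds kappaB-like DNA, Mdfic an inhibitor of MyoD family factors, Steap4 a metalloreductase and Tlr3 the receptor for double-stranded RNA. On the gene's strand the match began 210 bases before the start in Akap13, 221 in Hivep2, 220 in Mdfic, 226 in Steap4 (as the reverse complement) and 211 in Tlr3.
Akap13, chr7:75455284-75455533 (+ strand): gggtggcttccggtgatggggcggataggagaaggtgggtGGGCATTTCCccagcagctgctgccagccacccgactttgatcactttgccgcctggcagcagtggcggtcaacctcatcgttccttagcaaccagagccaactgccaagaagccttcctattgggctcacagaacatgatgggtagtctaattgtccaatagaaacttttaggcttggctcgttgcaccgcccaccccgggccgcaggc
Hivep2, chr10:13966129-13966378 (+ strand): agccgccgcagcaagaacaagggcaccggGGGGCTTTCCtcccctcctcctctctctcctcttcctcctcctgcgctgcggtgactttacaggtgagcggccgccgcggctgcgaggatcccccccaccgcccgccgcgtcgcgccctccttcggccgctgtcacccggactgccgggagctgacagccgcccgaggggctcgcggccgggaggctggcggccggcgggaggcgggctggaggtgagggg
Mdfic, chr6:15720411-15720660 (+ strand): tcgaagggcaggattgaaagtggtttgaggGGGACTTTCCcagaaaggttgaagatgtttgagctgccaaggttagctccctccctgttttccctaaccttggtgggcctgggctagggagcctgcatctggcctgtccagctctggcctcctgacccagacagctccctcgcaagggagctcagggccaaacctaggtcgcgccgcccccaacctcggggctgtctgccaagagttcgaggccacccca
Steap4, chr5:7960222-7960471 (+ strand): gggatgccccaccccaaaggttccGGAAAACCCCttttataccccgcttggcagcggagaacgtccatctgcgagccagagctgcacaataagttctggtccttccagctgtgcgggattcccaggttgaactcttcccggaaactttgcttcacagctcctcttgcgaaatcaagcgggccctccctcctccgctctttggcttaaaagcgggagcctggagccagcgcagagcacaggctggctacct
Tlr3, chr8:45410381-45410630 (- strand): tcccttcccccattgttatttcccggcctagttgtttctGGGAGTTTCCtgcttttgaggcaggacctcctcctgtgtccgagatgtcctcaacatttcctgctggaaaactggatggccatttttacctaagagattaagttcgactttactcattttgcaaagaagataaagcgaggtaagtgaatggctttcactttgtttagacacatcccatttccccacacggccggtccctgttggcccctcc

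H2-T22 is shown beside these as a gene with an interferon-stimulated response element, which is in capitals and begins 191 bases before the start. It was in the kept class with the exchange only. Its response was then 2.70 in tlr4f/f, against 1.59 in tlr4f/f-lysM-cre.
H2-T22, chr17:36042743-36042992 (- strand): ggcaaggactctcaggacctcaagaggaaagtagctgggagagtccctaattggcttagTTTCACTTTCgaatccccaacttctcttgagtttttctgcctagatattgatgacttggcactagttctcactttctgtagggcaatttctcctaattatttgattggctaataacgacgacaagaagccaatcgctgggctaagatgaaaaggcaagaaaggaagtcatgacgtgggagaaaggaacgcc

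Of these promoters' genes, Steap4 had few counts in the 2 groups headed tlr4f/f. It had 6, 4 and 2 counts in LPS- tlr4f/f, 512, 226 and 273 in LPS- tlr4f/f-lysM-cre, 3, 2 and 3 in LPS+ tlr4f/f and 27, 19 and 29 in LPS+ tlr4f/f-lysM-cre. Pacsin1, an endocytic membrane-bending protein, had 0, 4 and 1 counts, then 5, 9 and 2, then 117, 98 and 189, then 3, 2 and 1, and was thus high only in the libraries under LPS+ tlr4f/f. With a group at 3 counts or fewer, the fitted interactions of -3.73 for Steap4 and -8.12 for Pacsin1 depend on the prior count of the fit and are no bound.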

How the data were processed

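PolyA RNA of 12 libraries was sequenced as paired ends on an Illumina instrument. Per the labels and the study's methods, the authors trimmed reads with Trimmomatic 0.36, used HISAT2 for alignment to mm10 and HTSeq for counting. The deposited table holds raw counts per transcript (115140 transcripts), not normalized. Most reads appear under every transcript of their gene: over 8073 genes the transcript ranked second had 97.0% (median) of the reads of the one ranked first. The transcript with the highest total was therefore taken for each of 43131 genes. This can miss reads of other isoforms, and genes with near-identical copies, overlapping genes and antisense genes may share reads, since strand and multi-mapping settings are not given in the sources used here.

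Groups were taken from the headings of the columns. Counts were filtered with filterByExpr, scaled by TMM and fitted with edgeR 4.0.16 (R 4.3.3; robust quasi-likelihood, 4 groups, no covariate), and the interaction and LPS responses were contrasts of that fit. A DEG had a fold above 2 and a Benjamini-Hochberg adjusted p below 0.01. CPM used the TMM library sizes, and ± gives the standard error. On simulated data with the same groups (15659 genes, 200 changed by a log2 interaction of 2 in either direction) the fit called 53% of the changed genes and 1 other. The simulation gave each gene the same spread in all 4 groups. The real spread was 46.8% and 41.0% in the groups headed LPS- and 8.78% and 8.96% in those headed LPS+. The simulated results therefore need not hold for the real libraries. Alternatives were DESeq2 1.42.0, limma 3.58.1 voom with quality weights per group, RLE factors, other filters and thresholds, a replicate block, sums over transcripts, LPS responses from the 6 libraries of a genotype and leaving out each library, plus, added after seeing the data, calls with no fold criterion.

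The genes, lists and alternatives were chosen with earlier results of these data known. Genes were named by rule: Tlr4, Lyz2, the molecules and transcription factors that the study measures or discusses, the 5 largest interaction DEGs in each direction with 2 groups at 10 counts or more throughout and no group at or below 3 counts, the 2 largest DEGs of each list or else its gene with the lowest adjusted p, the 2 most abundant genes of each class in each reading, and the DEGs with the highest totals that have a group at or below 3 counts. Other names were chosen after their values were seen, and 1 gene that the rule names is not reported here. Coordinates and promoters are from RefSeq for GRCm38.p6 (mm10).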

Additional observations from a re-analysis of the deposited data

Results flagged for a closer look

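For 25 of the named genes the LPS response differed between the genotypes by the test of the interaction itself (edgeR's quasi-likelihood test, fold above 2, Benjamini-Hochberg adjusted p below 0.01). Negative values were found for Pacsin1 (-8.12), Angpt1 (-5.63), Asap3 (-4.82), Fhod3 (-3.99), Steap4 (-3.73), Pfkfb3 (-3.53), Ptch1 (-3.52), Klf4 (-2.64), Tnfsf9 (-2.10), Peli1 (-1.66), Junb (-1.56), Stat3 (-1.34), Tnip2 (-1.21) and Trip12 (-1.19). Positive values were found for Pold1 (1.16), Ipo13 (1.17), Ubxn2a (1.36), Mcm3 (1.41), Bora (1.94), Scd2 (2.59), Arrb1 (3.09), 6430548M08Rik (3.11), Cnr2 (3.24), Sesn1 (3.28) and Ldlrad3 (3.42). The values of Pacsin1 and Steap4 depend on the prior count of the fit, since 1 group of each had no library above 3 counts. Among the 25, Sesn1, Arrb1 and Ptch1 were called in all 20 alternatives. Klf4, Peli1 and 6430548M08Rik lost their calls without some of the 6 libraries headed LPS+. The remaining genes of the 25 lost theirs without each of these 6.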

How the results depend on the processing

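The direction of the interaction held in every alternative for the named genes that were called, but the counts moved. The 164 interaction DEGs (60 negative, 104 positive) became 657 (299 and 358) with DESeq2, 108 (48 positive) with limma voom and 629 (220 and 409) at an adjusted p below 0.05 with the same fold. RLE factors left 64 positive DEGs, and at least 10 counts in every library gave 97 negative ones. Leaving out each library in turn gave 10 to 306 DEGs (6 to 137 negative, 4 to 169 positive). It gave 10 to 21 where the 1 left out was headed LPS+, and the cause was not tested. Calls with no fold criterion, chosen after seeing the data, numbered 201. With the 2 headings exchanged, 147 lost responses became 575 with DESeq2, 88 with limma voom, 550 at the looser threshold and 9 to 275 without a library. The 1743 kept became 1332 to 1906 without a library, and the 8 gained became 48 with DESeq2, 41 at the looser threshold and 0 to 16 without a library. As headed, the 123 gained became 452 with DESeq2, 81 with limma voom, 432 at the looser threshold and 9 to 238 without a library. The 52 kept became 246, 173 at the looser threshold, 34 with sums over transcripts, 0 with LPS responses from the 6 libraries of each genotype and 8 to 127 without a library. The 1 lost (Pacsin1) became 35 with DESeq2, 20 at the looser threshold, 2 with RLE factors, limma voom or at least 10 counts, 0 with sums over transcripts or the 6-library responses, and 0 to 20 without a library. Genes with an interaction near 0 changed sign: without 1 library, Tlr4 lay at -0.27 to 0.17, Il1b at -1.30 to 0.43, Nfkb1 at -0.41 to 0.053, Jun at -0.14 to 0.37, Acod1 at -0.55 to 0.61 and Rnf213 at -0.26 to 0.14, and Acod1 was -0.29 with limma voom. Whether same-numbered libraries of different groups shared more than a number was not tested. Of 18 such pairs, 5 had a correlation of their deviations over 0.1 (-0.04 to 0.47). Between the 2 groups headed LPS- it was 0.47 for replicate 1, 0.34 for replicate 2 and 0.01 for replicate 3. Between the 2 groups headed LPS+ it was 0.06, 0.07 and 0.19 in the same order. The main fit had no replicate term, so it did not allow for such sharing. The replicate block gave 129 DEGs, 107 of them among the 164, and Acod1 at -0.063. With it 9 of the named DEGs were not called (Stat3, Asap3, Tnfsf9, Tnip2, Bora, Pold1, Scd2, Ipo13 and Ubxn2a, edgeR adjusted p = 0.0103 to 0.0189). With 3 libraries a group, a gene that was not called is not shown to have no interaction. With DESeq2 the list medians moved to -0.20 for interferon-beta response genes, -0.21 for effector enzymes, -0.21 for TLR4 and its adaptors and -0.26 for the unfolded protein response, and nearly the same with RLE factors.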
